A study of Mus musculus with 10 samples.

Results

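The genes described here are 9 genes of clotting, anticoagulation and clot lysis that endothelium is known to express. They were taken by symbol from the count table, and all 9 were found among its 55385 gene identifiers and passed the low-count filter that left 17997 genes for testing. They fall into 3 roles, with Vwf, F8 and F3 promoting clotting, Thbd, Procr, Tfpi and Entpd1 restraining it, and Plat and Plau starting the lysis of fibrin.

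Expression was read by RNA sequencing in endothelial cells sorted from mouse lung. All 10 libraries came from mice in which both copies of Tnfsf10, which encodes the death ligand TRAIL, are flanked by loxP sites (Tnfsf10 L/L). The 5 controls had no Cre transgene (Cdh5.Cre W/W). The 5 libraries of the other group, here called the EC-TRAIL KO-labelled libraries, carried a tamoxifen-inducible Cre driven by the endothelial Cdh5 promoter (Cdh5.Cre Tg/W). The labels put the mice between 8 and 14 weeks of age and give tamoxifen at 1 mg per mouse per day for 5 or 10 days, without saying which library had which course or whether controls were injected too. The design text counts 4 Tg/W animals where the labels and the table hold 5, and which one it leaves out is not stated. Cre and the loss of Tnfsf10 cannot be told apart in this design. No label states that each library is a separate mouse, so p-values measure only the spread between these libraries.

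Healthy endothelium keeps blood fluid in several ways. It binds thrombin to thrombomodulin, which turns the enzyme from a clotting protease into an activator of protein C, and it carries the inhibitor of the tissue factor pathway and an enzyme that removes the platelet agonist ADP. The same cells store von Willebrand factor for the capture of platelets after injury, and they secrete tissue-type plasminogen activator to dissolve fibrin. Tissue factor itself is kept low in resting endothelium and is abundant in cells around the vessel, alveolar epithelium among them.

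Library totals were 34435835 to 56897822 expected counts in controls and 29806083 to 34702571 in the EC-TRAIL KO-labelled libraries, so depth was lower in the second group. Tnfsf10 (ENSMUSG00000039304) averaged 334 ± 35.7 CPM over the controls and 179 ± 89.7 CPM over the EC-TRAIL KO-labelled libraries (CPM, counts scaled to a common library size after TMM normalization, mean ± SD, n = 5 each). Its log2 fold change was -0.90 (edgeR adjusted p = 0.425) and became -1.21 (adjusted p = 0.0345) without replicate 2 of the second group. That replicate had 318 CPM, within the control range of 298 to 374 CPM. This Tnfsf10 level goes against its label, and by itself does not show that the library is like a control in other genes. The fold changes and spread of the 9 genes, and the order of their levels, are given below with and without that replicate. The 8 endothelial markers fixed for this work, Pecam1, Cdh5 and Kdr among them, summed to 9902 to 11588 CPM in controls and 9824 to 11570 CPM in the EC-TRAIL KO-labelled libraries, and none was at 0. Markers of other cell types were also detected. The summed alveolar epithelial markers reached 7316 to 11251 and 6175 to 8824 CPM (7 genes, Sftpc the highest) and the platelet and megakaryocyte markers 14.4 to 48.1 and 12.05 to 33.7 CPM (5 genes), controls first. The 9 leukocyte markers summed to 1227 to 1869 and 1041 to 1536 CPM, nearly all of it Lyz2 (means of 1404 and 1267 CPM), a myeloid gene that alveolar type II cells also express. Cd68 was at 36.3 and 34.7 CPM, the pan-leukocyte gene Ptprc at 3.32 and 3.24 CPM, and Marco and Cd3e had 0 counts in at least 1 library. No member of any marker list passed the test between the groups.

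None of the 9 genes differed between the groups beyond the spread of the libraries. In edgeR's quasi-likelihood test 0 of 9 passed (adjusted p = 0.997 for each, Benjamini-Hochberg over all genes tested), where 0.439% of all genes tested passed. At an unadjusted p under 0.05 the count was also 0 of 9, against 5.13% of all genes tested, and DESeq2, limma-voom and limma-voom with quality weights called 0 of 9 as well. Without replicate 2 of the EC-TRAIL KO-labelled libraries edgeR called 88 genes in all, and 0 of the 9. The 2 groups overlapped in all 9 genes, while 1.64% of all genes tested had groups that did not overlap. Exact two-sided permutation tests over every assignment of the libraries to 2 groups of 5 gave p from 0.460 (Plau) to 0.913 (Thbd), where 5 against 5 can reach 0.00794. The median log2 fold change of the 9 genes was -0.013, beside -0.0085 over all genes tested, and the median absolute log2 fold change was 0.066, beside 0.093. In bulk RNA of sorted cells, fewer cells of a type and less RNA per cell cannot be told apart.

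**Figure D1:**
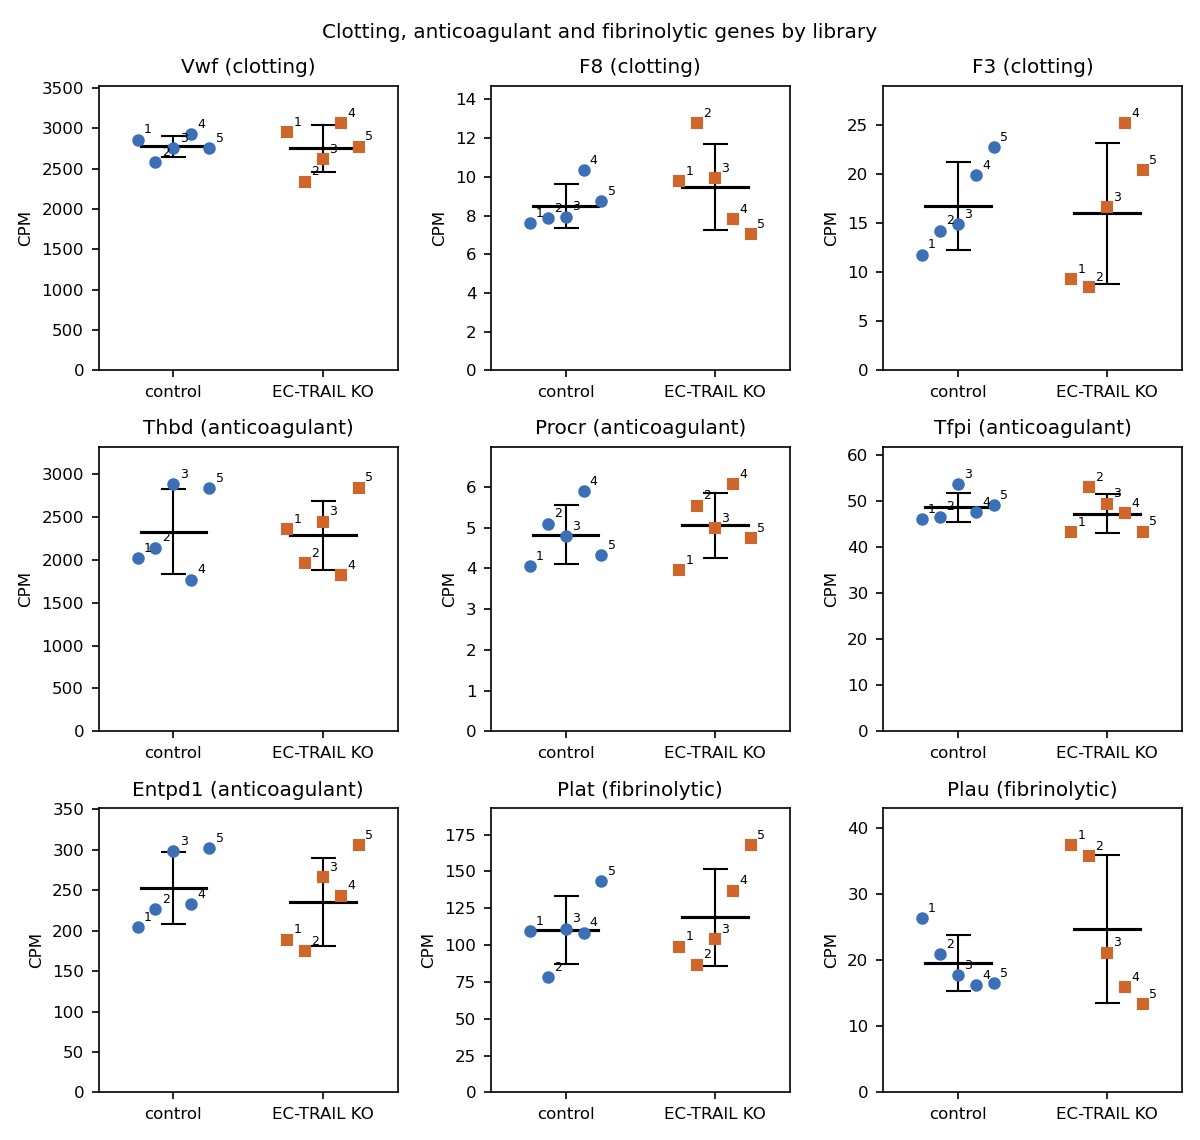
Expression of the 9 genes in every library, in CPM on axes that start at 0. Circles are controls and squares are EC-TRAIL KO-labelled libraries, numbered by replicate, with a bar for the mean and whiskers for the SD (n = 5 each). The 2 groups overlap in each panel, and Plau reaches 37.4 and 35.8 CPM in replicates 1 and 2 of the EC-TRAIL KO-labelled libraries.

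Among the clotting genes, Vwf had the highest level per exon length. It encodes von Willebrand factor, the multimeric protein that tethers platelets and carries factor VIII (ENSMUSG00000001930, GRCm38 chromosome 6, 125546774 to 125686679, plus strand). Controls 1 to 5 had 2861, 2587, 2753, 2933 and 2757.5 CPM of Vwf. Replicates 1 to 5 of the EC-TRAIL KO-labelled libraries had 2959, 2339.7, 2623, 3067 and 2776 CPM. Both extremes, replicate 2 at the bottom and replicate 4 at the top, belonged to the second group, and its other 3 values lay close to the controls. The log2 fold change of Vwf was -0.013 (SE 0.086), and its 95% interval of 0.870-fold to 1.13-fold was the second narrowest of the 9. Without replicate 2 of the EC-TRAIL KO-labelled libraries it was 0.040.

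F8, which encodes clotting factor VIII, the cofactor of factor IX (ENSMUSG00000031196, chromosome X, 75172715 to 75382615, minus strand), was the lowest of the 9 per exon length. Its CPM values were 7.59, 7.87, 7.95, 10.3 and 8.73 in controls 1 to 5, and replicates 1 to 5 of the EC-TRAIL KO-labelled libraries had 9.77, 12.8, 9.94, 7.81 and 7.04 CPM. The second group held both the highest value, in replicate 2, and the lowest, in replicate 5. F8 had a log2 fold change of 0.16 (SE 0.157, 95% interval 0.880-fold to 1.41-fold), and 0.026 without replicate 2 of the EC-TRAIL KO-labelled libraries. In the annotation, Fundc2 on the opposite strand overlaps the span of F8, by an extent that was not measured. Its mean was 24.2 CPM. The strand setting of the counting is not given in the sources used here, so reads of the overlap could have been given to either gene.

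F3, which encodes tissue factor, the cell-surface receptor of factor VII that starts clotting (ENSMUSG00000028128, chromosome 3, 121723537 to 121735048, plus strand), was uneven between libraries of the same group. F3 was at 11.8, 14.2, 14.9, 19.9 and 22.7 CPM in controls 1 to 5, and replicates 1 to 5 of the EC-TRAIL KO-labelled libraries had 9.25, 8.46, 16.6, 25.2 and 20.3 CPM. Replicates 4 and 5 were the highest of both groups, and the group means of 16.7 ± 4.48 and 16.0 ± 7.17 CPM were close together (SD, n = 5 each). The log2 fold change of F3 was -0.062 (SE 0.288, 95% interval 0.621-fold to 1.48-fold) and 0.097 without replicate 2 of the EC-TRAIL KO-labelled libraries, so its sign rests on single libraries. Alveolar epithelium also expresses F3. The part of epithelial RNA in its level was not tested.

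Thbd had the highest level per exon length of all 9 genes. It encodes thrombomodulin, the thrombin receptor of the endothelial surface (ENSMUSG00000074743, chromosome 2, 148404466 to 148408188, minus strand). Controls 1 to 5 had 2018, 2140.1, 2879, 1769 and 2831 CPM of Thbd, and replicates 1 to 5 of the EC-TRAIL KO-labelled libraries had 2353, 1959, 2444, 1818 and 2838 CPM. The values of both groups ran over nearly the same span, from about the level of control 4 to that of control 3. The log2 fold change of Thbd was -0.028 (SE 0.158, 95% interval 0.773-fold to 1.24-fold), with a sign that turned when any of 4 single libraries was left out, among them replicate 2 of the EC-TRAIL KO-labelled libraries (0.022).

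Procr encodes the endothelial protein C receptor, which presents protein C to the thrombin bound by thrombomodulin (ENSMUSG00000027611, chromosome 2, 155751117 to 155755471, plus strand). Procr was at 4.05, 5.10, 4.79, 5.90 and 4.32 CPM in controls 1 to 5, and replicates 1 to 5 of the EC-TRAIL KO-labelled libraries had 3.97, 5.54, 4.98, 6.07 and 4.75 CPM. Replicate 4 was highest and replicate 1 lowest in both groups, and the values rest on 136 to 300 counts per library. The log2 fold change of Procr was 0.066 (SE 0.148, 95% interval 0.838-fold to 1.31-fold), and 0.032 without replicate 2 of the EC-TRAIL KO-labelled libraries.

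Tfpi encodes tissue factor pathway inhibitor, which blocks the complex of tissue factor and factor VII (ENSMUSG00000027082, chromosome 2, 84432855 to 84476775, minus strand). Controls 1 to 5 had 46.1, 46.6, 53.6, 47.5 and 49.1 CPM of Tfpi, and replicates 1 to 5 of the EC-TRAIL KO-labelled libraries had 43.2, 53.0, 49.4, 47.3 and 43.3 CPM. This was the steadiest gene of the 9 over the 10 libraries, with a coefficient of variation of 7.33%, just below the 7.62% of Vwf. Without replicate 2 of the EC-TRAIL KO-labelled libraries Vwf was the steadier, at 5.59% against 6.77% for Tfpi. The log2 fold change of Tfpi, -0.039 (SE 0.074), had the narrowest 95% interval of the 9 genes, 0.870-fold to 1.09-fold. It was -0.084 without replicate 2 of the EC-TRAIL KO-labelled libraries.

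Entpd1 encodes CD39, the ectoenzyme that breaks down ATP and ADP at the cell surface (ENSMUSG00000048120, chromosome 19, 40612366 to 40741602, plus strand). Entpd1 was at 204, 226, 299, 233 and 302 CPM in controls 1 to 5, and replicates 1 to 5 of the EC-TRAIL KO-labelled libraries had 189, 175, 266, 243 and 306 CPM. Replicates 1 and 2 of the EC-TRAIL KO-labelled libraries lay below every control, and replicate 5 above every control. The log2 fold change of Entpd1 was -0.10 (SE 0.160, 95% interval 0.732-fold to 1.19-fold), and -0.011 without replicate 2 of the EC-TRAIL KO-labelled libraries.

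Of the activators of plasminogen, Plat encodes the tissue-type enzyme, the form released by endothelium into blood (ENSMUSG00000031538, chromosome 8, 22757727 to 22782844, plus strand). Controls 1 to 5 had 109, 78.3, 111, 108 and 143 CPM of Plat, and replicates 1 to 5 of the EC-TRAIL KO-labelled libraries had 99.0, 86.8, 104, 137 and 168 CPM. Replicate 5 had the highest value in each group, and replicate 2 the lowest. The log2 fold change of Plat was 0.11 (SE 0.186, 95% interval 0.815-fold to 1.43-fold), -0.047 without replicate 5 of the EC-TRAIL KO-labelled libraries and 0.20 without replicate 2.

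Plau encodes the urokinase-type activator, which acts at the surface of cells that carry its receptor (ENSMUSG00000021822, chromosome 14, 20836660 to 20843385, plus strand). Controls 1 to 5 had 26.4, 20.9, 17.8, 16.2 and 16.6 CPM of Plau, and replicates 1 to 5 of the EC-TRAIL KO-labelled libraries had 37.4, 35.8, 21.2, 15.9 and 13.3 CPM. Replicates 1 and 2 of the EC-TRAIL KO-labelled libraries were above every control, replicate 3 was within the control range, and replicates 4 and 5 were below every control. The mean was 19.6 ± 4.23 CPM in controls and 24.7 ± 11.2 CPM in the EC-TRAIL KO-labelled libraries (SD, n = 5 each). Plau had the largest log2 fold change of the 9, 0.34 (SE 0.270), with a 95% interval from 0.840-fold to 1.90-fold that covers no difference. Without replicate 2 of the EC-TRAIL KO-labelled libraries it was 0.17.

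**Figure D2:**
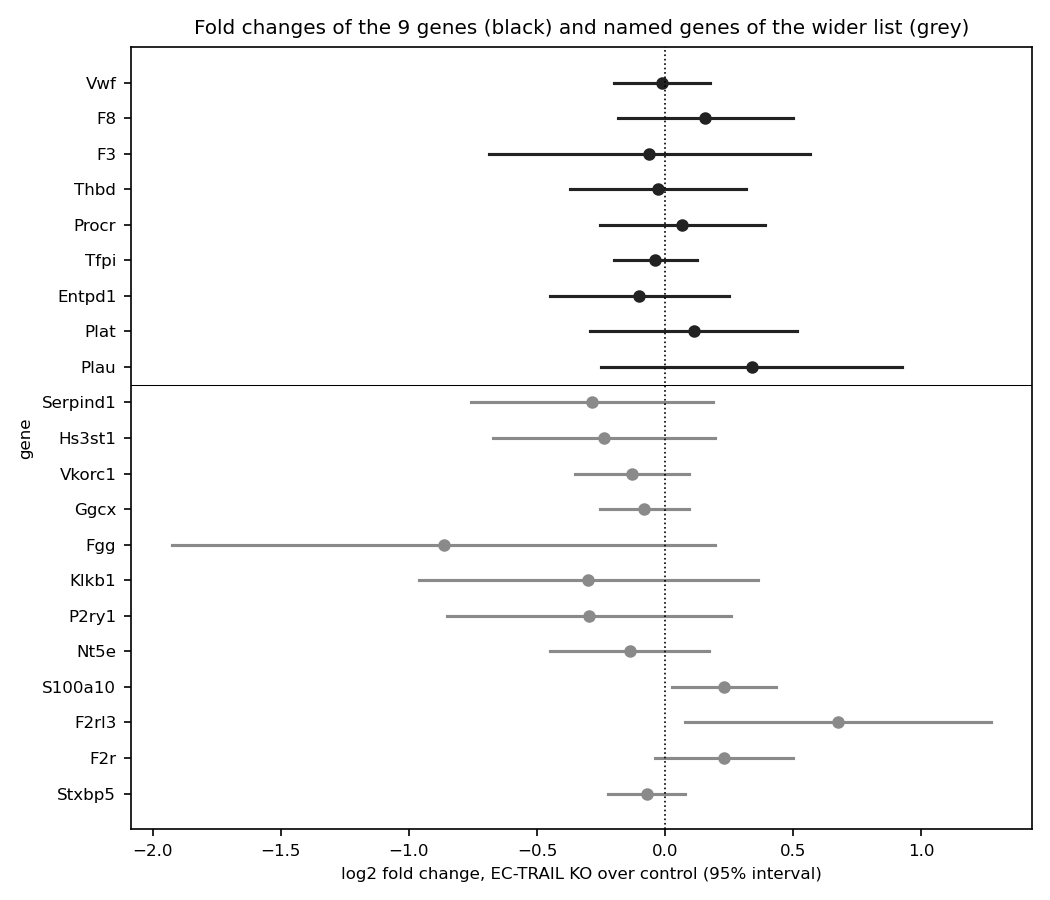
Log2 fold changes of the EC-TRAIL KO-labelled libraries over controls, as points with 95% intervals from edgeR's quasi-likelihood fit. The 9 genes are in black above the line and 12 genes of the wider pathway list in grey below it. All 9 black intervals cover 0, with the narrowest in Tfpi and Vwf and the widest in F3 and Plau.

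Levels per exon length put the genes in an order that fold changes do not show. CPM per kilobase of annotated exon averaged 619 for Thbd over the 10 libraries, 172 for Vwf, 43.8 for Entpd1 and 18.3 for Plat. On the same scale Plau was at 9.36, Tfpi at 8.77, F3 at 6.46, Procr at 2.44 and F8 at 0.907. The lowest library of Thbd (475) was above the highest of Vwf (191), so these neighbours were apart in every library, and the same held for Vwf over Entpd1 and for Entpd1 over Plat. Plat and Plau overlapped (12.5 to 26.9 and 5.64 to 15.8), and Plau, Tfpi and F3 overlapped with each other. F3 at its lowest (3.35) was above Procr at its highest (2.99), and Procr at its lowest (1.95) above F8 at its highest (1.29). The range of Tfpi, 7.91 to 9.82, lay inside that of F3, the gene of the protein whose complex it blocks. The means ran in the same order without replicate 2 of the EC-TRAIL KO-labelled libraries, from 629 for Thbd to 0.864 for F8, with Plau at 8.72 and Tfpi at 8.67. The exon length is that of all annotated exons of a gene joined, and a shorter expressed isoform would give a higher level.

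**Figure D3:**
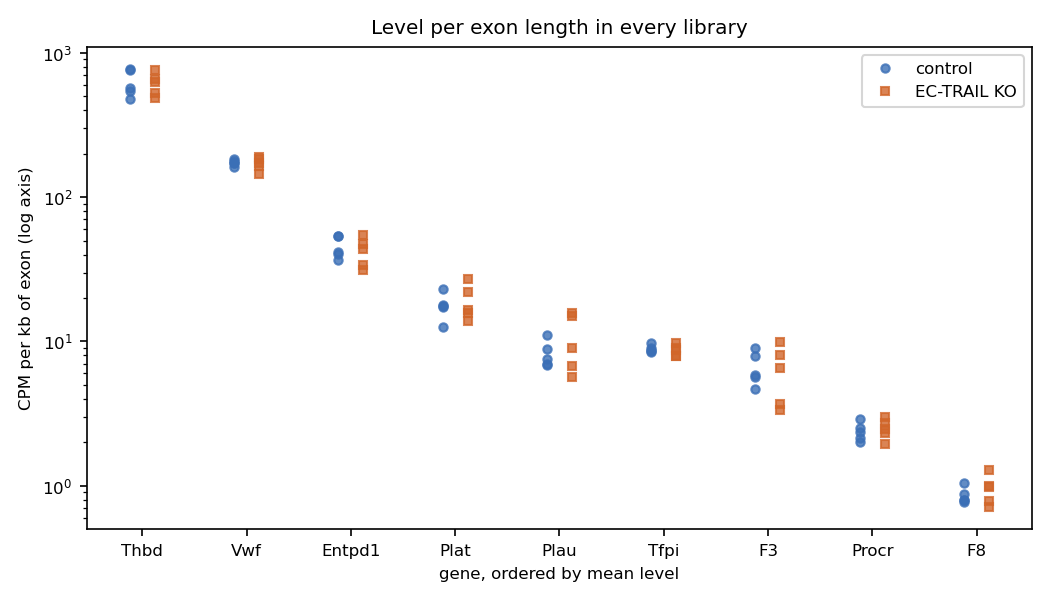
CPM per kilobase of exon for the 9 genes on a log axis, ordered by mean level, with a circle for each control and a square for each library labelled EC-TRAIL KO. Thbd lies highest, between 475 and 773, and F8 lowest, at or below 1.29, with Plau, Tfpi and F3 overlapping between them.

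The 9 genes differed in how evenly they were expressed between libraries. The coefficient of variation over the 10 libraries was 38.1% for Plau, 34.6% for F3, 23.8% for Plat, 19.5% for Entpd1, 19.4% for F8, 18.7% for Thbd, 14.7% for Procr, 7.62% for Vwf and 7.33% for Tfpi. Among the genes tested whose mean level was within 2-fold, 98.2% varied less than Plau, 96.6% less than F3 and 95.8% less than Plat. The corresponding shares were 28.6% for Tfpi and 20% for Vwf. The coefficient of variation was larger in the EC-TRAIL KO-labelled libraries than in controls for 8 of the 9 genes, Thbd being the exception, and for 57.5% of all genes tested. Without replicate 2 of the EC-TRAIL KO-labelled libraries the coefficient of variation was 35.7% for Plau, 30.4% for F3, 23.0% for Plat and 18.7% for Thbd. Over the same libraries it was 17.2% for Entpd1, 15.1% for Procr and 13.9% for F8, and lower for Vwf (5.59%) than for Tfpi (6.77%). For 8 of the 9 it was still larger in the EC-TRAIL KO-labelled libraries. The share over all genes tested was not computed without that replicate.

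F3 and Plau varied in opposite directions. The 4 libraries with the highest F3, controls 4 and 5 and replicates 4 and 5 of the EC-TRAIL KO-labelled libraries, were also the 4 with the lowest Plau. Over the 10 libraries Pearson's r of log2 CPM between F3 and Plau was -0.930 (permutation p = 9e-05, adjusted p = 0.00324 over the 36 pairs of the 9 genes) and Spearman's rho was -0.891 (permutation p = 0.00112, adjusted p = 0.0403). Without the 2 libraries farthest from the median of F3, replicates 1 and 2 of the EC-TRAIL KO-labelled libraries, r was -0.815, and with the group means removed it was -0.933. A second pair, Entpd1 and Plau, had r = -0.859 (permutation p = 0.00163, adjusted p = 0.0293) and rho = -0.770 (permutation p = 0.0130, adjusted p = 0.108). Without replicate 2 of the EC-TRAIL KO-labelled libraries the adjusted p was 0.0302 for F3 with Plau and 0.115 for Entpd1 with Plau. The r of the latter was -0.747 without the 2 libraries farthest from the median of Entpd1, and the adjusted p ranged up to 0.126 when single libraries were left out. These permutations treat the 10 libraries as independent, and most libraries deviated together with the same-numbered library of the other group across all genes (r of 0.159 to 0.522 for 4 of the 5 numbers), which the p-values do not take into account. The other 34 pairs did not pass. Among them F3 and Entpd1 had r = 0.775 (permutation p = 0.0104, adjusted p = 0.124) and rho = 0.794 (permutation p = 0.00903, adjusted p = 0.108), with r = 0.464 without replicates 1 and 2 of the EC-TRAIL KO-labelled libraries.

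**Figure D4:**
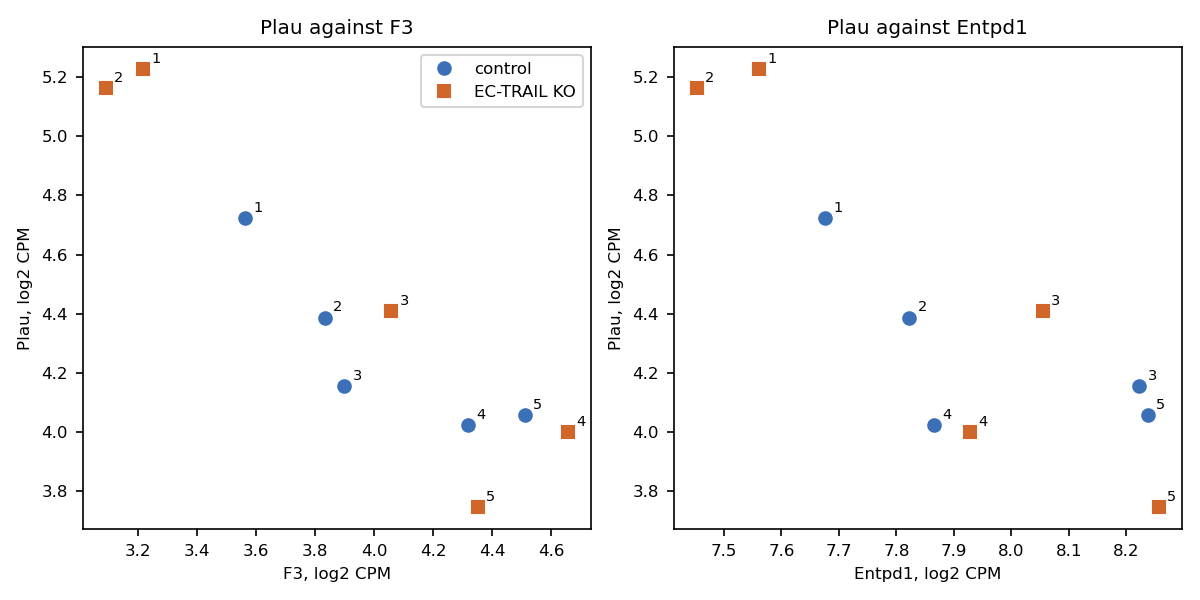
Log2 CPM of Plau against that of F3 (left) and Entpd1 (right), a point for each of the 10 libraries, numbered by replicate, circles for controls and squares for EC-TRAIL KO-labelled libraries. In both panels replicates 1 and 2 of the EC-TRAIL KO-labelled libraries sit at the top left. Pearson's r over the 10 libraries of both groups together is -0.930 (left) and -0.859 (right), and slopes by group were not fitted.

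Markers of some other cell and vessel types are given beside this pair, and not all of them moved with it. The 7 alveolar epithelial markers summed to 7316 and 8545 CPM in controls 4 and 5 and to 8824 and 8090.1 CPM in replicates 4 and 5 of the EC-TRAIL KO-labelled libraries, the 4 libraries with the highest F3, and to 6175 to 11251 CPM in the other 6, a range that holds those 4. The alveolar type I gene Ager, by contrast, was at 771 and 537 CPM in replicates 1 and 2 of the EC-TRAIL KO-labelled libraries, where F3 was lowest, and at 903 to 1162 CPM in the other 8 libraries. The sum of the 4 aerocyte capillary markers tended to run against F3. It was 894 to 1097 CPM in the 4 libraries with the highest F3. In the other 6 it was 1076 to 1246 CPM, a range that overlaps the first. Car4, a defining gene of these capillaries, was highest in replicates 1 and 2 of the EC-TRAIL KO-labelled libraries (446.5 and 421 CPM) and lowest in replicate 4 (306 CPM), with r of -0.88 with F3 and 0.812 with Plau over the 10 libraries, as a description. Ager, Car4 and the sums for pericytes and smooth muscle and for fibroblasts were chosen after their values were seen. The part of alveolar epithelial cells, pericytes and smooth muscle, fibroblasts and aerocyte capillary cells in the F3 and Plau values was not tested.

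The sequences before the starts of F3, Entpd1 and Tfpi are shown. They were taken because F3 and Entpd1 each ran opposite to Plau, while Tfpi was the steadiest gene over all 10 libraries. Each run is the 250 bases before the RefSeq start on GRCm38.p6, 5′ to 3′ on the strand of the gene. RefSeq lists a second start for Entpd1 and for Tfpi, and the windows shown are those at the start nearest to the GENCODE gene start. Capitals mark the AP-1 motif TGANTCA and the GC box GGGCGG on either strand. The F3 run is chr3:121723287-121723536 (plus strand), the Entpd1 run chr19:40612116-40612365 (plus strand) and the Tfpi run chr2:84476760-84477009 (minus strand).
F3: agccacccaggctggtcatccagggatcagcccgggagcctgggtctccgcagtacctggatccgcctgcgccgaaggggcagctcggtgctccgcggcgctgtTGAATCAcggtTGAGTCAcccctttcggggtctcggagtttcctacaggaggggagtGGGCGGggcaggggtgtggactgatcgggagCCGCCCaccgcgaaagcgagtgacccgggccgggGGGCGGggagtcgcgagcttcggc
Entpd1: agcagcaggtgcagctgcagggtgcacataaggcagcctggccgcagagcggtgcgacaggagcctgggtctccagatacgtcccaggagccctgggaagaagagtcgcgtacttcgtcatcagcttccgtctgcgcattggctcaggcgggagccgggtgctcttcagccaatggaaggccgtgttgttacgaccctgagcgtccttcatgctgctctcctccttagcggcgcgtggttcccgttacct
Tfpi: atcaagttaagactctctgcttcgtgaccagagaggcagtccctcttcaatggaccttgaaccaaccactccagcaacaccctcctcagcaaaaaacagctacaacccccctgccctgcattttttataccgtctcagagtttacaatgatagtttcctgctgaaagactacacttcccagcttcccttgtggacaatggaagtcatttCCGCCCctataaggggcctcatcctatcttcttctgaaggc
The F3 run had a GC content of 70%, 3 GC boxes and 2 AP-1 matches, which begin 146 and 135 bases before the start. The Entpd1 run had a GC content of 62.4% and neither motif. The Tfpi run had a GC content of 48.4%, 1 GC box and no AP-1 match. Of 32851 RefSeq promoter windows of that length, 6.75% held TGANTCA and 32.7% held GGGCGG on either strand. The CACCC box of Krüppel-like factors, searched as CACCC on both strands, was present 3 times in F3, 2 times in Entpd1 and 1 time in Tfpi, and in 52% of all windows. A match of letters is a description of the window and not a binding site. The window at the second start of Entpd1 had a GC content of 47.2% and none of the 3 motifs, and that at the second start of Tfpi a GC content of 52.8%, 1 GC box and 1 CACCC. Procr, with a GC content of 61.6%, also held 1 AP-1 match. The table held windows for 5 of the 9 genes, with none for Plau, Vwf, Thbd and Plat, so F3 and Entpd1 could not be set beside Plau. The window of F8, at a RefSeq start 2574 bases from the GENCODE start, had a GC content of 42.8% and none of the 3 motifs.

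Genes whose pattern over the 10 libraries was closest to each of the 9 were taken among 10791 protein-coding genes with a mean of at least 5 CPM, as a description of these libraries. F8 ran closest to Stab2, a scavenger receptor of sinusoidal and lymphatic endothelium (r = 0.953), and then to Exosc8 (r = 0.935). Stab2 was at 32.8 CPM in replicate 2 of the EC-TRAIL KO-labelled libraries, where F8 was highest too, and at 9.68 to 21.0 CPM in the other 9 libraries. F3 ran closest to Scnn1g, a subunit of the epithelial sodium channel (r = 0.978), and to Retreg1 (r = 0.957). Plau ran closest to Wdr74 (r = 0.972) and Fgd6 (r = 0.970), and Plat to Slc43a3 (r = 0.965) and Rin3 (r = 0.944). Thbd ran closest to Fam114a2 (r = 0.968) and to the autophagy kinase gene Ulk2 (r = 0.955), and Entpd1 to Bnip3 (r = 0.967) and Usp54 (r = 0.964). The closest to Vwf were Rusc1 (r = 0.923) and Cldn15 (r = 0.877), to Procr Hunk (r = 0.957) and Maged2 (r = 0.952), and to Tfpi Lims1 (r = 0.940) and Gtf2h5 (r = 0.923). The highest of so many values is large by selection, and all share the same 10 libraries.

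A wider list of 55 genes of the pathway gave no call. Of the 41 genes that were tested, 0 passed in either direction (edgeR's quasi-likelihood test, Benjamini-Hochberg), beside 0.439% of all genes tested, and DESeq2 and limma-voom also called 0. At an unadjusted p under 0.05 there were 3 of 41, beside 5.13% of all genes tested. The median log2 fold change was -0.039 and the median absolute value 0.13, beside -0.0085 and 0.093 over all genes tested. Of the 41 genes, 14 were above 0, beside 8532 of the 17997 genes tested. The signs by role given below were not tested as sets. The other 14 genes, F9, F11, F12, Fga, Fgb, Plg and Proc among them, which are made mainly in liver, were removed as too low.

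Of the inhibitors and partners of the plasminogen activators, 7 of 10 were tested, with 6 log2 fold changes above 0 and a median of 0.19. S100a10, a partner of annexin A2 at the cell surface, had means of 62.3 ± 5.87 and 73.1 ± 9.12 CPM, controls first (SD, n = 5 each). Its log2 fold change of 0.23 (SE 0.093) did not pass (edgeR adjusted p = 0.855) and was 0.16 without replicate 2 of the EC-TRAIL KO-labelled libraries, its highest library.

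All 4 protease receptors were tested, with 2 log2 fold changes above 0 and a median of 0.037. F2r, which encodes the thrombin receptor PAR1, was at 178 ± 15.6 and 209 ± 41.6 CPM, and F2rl3, which encodes PAR4, at 0.785 ± 0.223 and 1.26 ± 0.442 CPM, controls first (SD, n = 5 each). Their log2 fold changes of 0.23 and 0.67 did not pass (edgeR adjusted p = 0.997 and 0.857). That of F2rl3 was 0.45 without replicate 2 of the EC-TRAIL KO-labelled libraries.

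The 7 genes of VWF storage, cleavage and platelet binding were tested, with 3 log2 fold changes above 0 and a median of -0.039. Stxbp5, which encodes a syntaxin-binding protein, had 102 ± 6.77 and 96.9 ± 6.59 CPM, controls first (SD, n = 5 each), with a log2 fold change of -0.073 (edgeR adjusted p = 0.997). Selp, which encodes the P-selectin stored with VWF, and Adamts13, the protease that cleaves VWF, were among the members that did not pass.

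Of the 14 clotting factors 7 were tested, with 1 log2 fold change above 0 and a median of -0.26. Fgg, the fibrinogen gamma chain, was at 0.891 ± 0.639 and 0.477 ± 0.219 CPM, and Klkb1, plasma prekallikrein, at 0.798 ± 0.116 and 0.647 ± 0.301 CPM (SD, n = 5 each, log2 fold changes of -0.86 and -0.30, edgeR adjusted p = 0.997 for both). The value of Fgg was -0.40 without control 5, and that of Klkb1 -0.11 without replicate 1 of the EC-TRAIL KO-labelled libraries. Of the 9 anticoagulant proteins and helpers 6 were tested, with 1 log2 fold change above 0 and a median of -0.12. Hs3st1, which makes the heparan sulfate that antithrombin binds, had 99.3 ± 26.8 and 84.2 ± 21.1 CPM, and Serpind1, heparin cofactor II, 1.28 ± 0.376 and 1.05 ± 0.042 CPM (SD, n = 5 each, log2 fold changes of -0.24 and -0.28, edgeR adjusted p = 0.997 for both).

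Of the 7 genes of nucleotide breakdown and adenosine 6 were tested, with none above 0 and a median log2 fold change of -0.039. Nt5e, which encodes CD73 and makes adenosine from the AMP that CD39 leaves, had 47.6 ± 2.82 and 43.2 ± 10.9 CPM, and the ADP receptor gene P2ry1 1.73 ± 0.592 and 1.40 ± 0.226 CPM (SD, n = 5 each, log2 fold changes of -0.14 and -0.30, edgeR adjusted p = 0.997 for both). That of Nt5e was -0.038 without replicate 2 of the EC-TRAIL KO-labelled libraries, and that of P2ry1 -0.13 without control 5. The 4 genes of vitamin K-dependent carboxylation and of the secretion of factors V and VIII were tested, with 1 log2 fold change above 0 and a median of -0.064. Ggcx, the carboxylase, and Vkorc1, the vitamin K reductase, had log2 fold changes of -0.082 and -0.13 (edgeR adjusted p = 0.997 for both).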

How the data were processed

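Gene expression was measured by RNA sequencing in 10 libraries of sorted mouse lung endothelial cells, 5 in each group. Per the labels' protocols, total RNA came from a TRIzol extraction and the libraries from a stranded poly(A) kit (KAPA). Per the submitters' processing notes, STAR 2.7.1a, RSEM 1.2.28 and build GRCm38 were used. The deposited values are expected counts per gene with no normalization by the authors, and 81.2% of them are whole numbers. The annotation used for counting, any filter and the strand option were not given in the sources used here.

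Symbols, positions and exon lengths came from GENCODE M21 of GRCm38, in which 55144 of 55385 identifiers matched without their version. Expected counts were rounded, filtered with filterByExpr (minimum count 10), scaled by TMM and compared with edgeR 4.0.16 in R 4.3.3 (estimateDisp, glmQLFit and glmQLFTest, group as the only term, Benjamini-Hochberg, threshold 0.05). The standard error is the log2 fold change divided by the square root of F, and 95% intervals use the test's degrees of freedom. Log2 CPM used a prior count of 2. Correlation p-values come from 100000 permutations. The test was also run on simulated counts of independent libraries, and the outcome is not given here. The alternatives were RLE, library size only, DESeq2 1.42.0, limma 3.58.1 voom with and without quality weights, no filter, a filter at mean CPM 1, a replicate block, a covariate made of 37 markers of other cells and each library left out.

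The members and lists were chosen with earlier results of these data known. The genes named are the 9 members, Tnfsf10, in each role of the wider list the 2 genes with the smallest p, and for each member the 2 genes with the highest r. Some genes that the rule takes are not reported here. Lists of venous, arterial, general capillary, lymphatic, fibroblast, pericyte and smooth muscle, mesothelial and erythroid markers were also summed, and none of their members passed. Stab2 by library, Ager, Car4, Lyz2, Cd68, Ptprc, Marco, Cd3e, Selp, Adamts13 and the genes removed as too low were named after their values were seen.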

Additional observations from a re-analysis of the deposited data

Results flagged for a closer look

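Ggcx, the vitamin K-dependent carboxylase, had 1 library apart from the rest in each group. In the EC-TRAIL KO-labelled libraries, replicate 2 was lowest, at 37.4 CPM, where the other 4 ran from 45.5 to 46.6 CPM. In controls, replicate 1 was lowest, at 40.9 CPM, where the other 4 ran from 47.4 to 49.8 CPM. These were the 2 such cases in 48 sets of 5 libraries (24 genes in 2 groups), and chance alone gives about 1 in 20.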

How the results depend on the processing

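The call of 0 of the 9 genes held in all 19 alternatives, and the lowest adjusted p of any of them was 0.678. Over all genes tested, 79 were called in the comparison as reported, 2 with library size only, 211 with DESeq2, 2 with limma-voom, 2 with limma-voom with quality weights, 143 with no low-count filter, 149 with the replicate block, 2 with the covariate of markers of other cells, and 2 to 155 when single libraries were left out. The cause was not tested. The sign of Thbd turned with quality weights (log2 fold change 0.024) and with the marker covariate (0.031). When single libraries were left out, the log2 fold change ran from -0.12 to 0.058 for Thbd, -0.055 to 0.040 for Vwf, -0.29 to 0.097 for F3, -0.0077 to 0.15 for Procr and -0.047 to 0.22 for Plat. F8, Tfpi, Entpd1 and Plau and the 12 named genes of the wider list kept their sign in every alternative that gave a value, and none of them passed in any, but single libraries moved some of them, Fgg from -1.08 to -0.40, Klkb1 from -0.58 to -0.11, Nt5e from -0.28 to -0.038 and Hs3st1 from -0.38 to -0.11. Tnfsf10 passed only without replicate 2 of the EC-TRAIL KO-labelled libraries (log2 fold change -1.21, edgeR adjusted p = 0.0345, in a range up to 0.801). Under alternatives added after seeing the data, r of F3 with Plau was -0.949 to -0.900 with single libraries left out (adjusted p up to 0.0436), and that of Entpd1 with Plau was -0.904 to -0.799 (adjusted p 0.0211 to 0.126). Same-numbered libraries of the 2 groups deviated together with r of 0.0863 to 0.522 across genes, and 8 of 10 libraries were closest to their own number, a hint of shared structure in the data. The labels do not say that a number marks a shared source and number 2 fell below the r of 0.1 asked of every pair, so the numbers were not taken as pairs. With the replicate block 0 of the 9 genes were called. The smallest counts of the 9 genes were those of Procr and F8, 136 to 477 per library.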

Other observations

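The values of 6 clock and glucocorticoid-response genes, chosen after values were seen and not from a fixed list, are given beside those of F3 and Plau. Nr1d1, which encodes the clock repressor REV-ERBα, was at 108, 67.0, 107 and 103 CPM in controls 4 and 5 and in replicates 4 and 5 of the EC-TRAIL KO-labelled libraries, the 4 libraries with the highest F3 and the lowest Plau. In the other 6 libraries Nr1d1 was at 9.28 to 23.1 CPM. Cry1, another clock gene, ran the other way, at 12.7 to 14.0 CPM in those 4 libraries and 14.8 to 30.0 CPM in the other 6. Klf9, a glucocorticoid-induced transcription factor gene, was lowest in replicates 1 and 2 of the EC-TRAIL KO-labelled libraries (232 and 229 CPM), where F3 and Entpd1 were lowest and Plau highest. Its highest value was in control 3 (455.9 CPM), which is not among the 4 libraries with the highest F3. Per1, Fkbp5 and Tsc22d3 also did not set those 4 libraries apart. Per1 was highest in control 4 and replicate 4 of the second group (509 and 758.5 CPM). Fkbp5 was highest in control 5 and replicate 5 of the second group (49.8 and 81.05 CPM), but at 42.1 and 42.8 CPM in both replicates 3 it exceeded control 4 and replicate 4 of the second group (25.0 and 34.0 CPM). Tsc22d3 was highest in control 3 (306 CPM) and at 91.9 and 115 CPM in control 4 and replicate 4 of the second group. None of the 6 genes passed the test between the groups (edgeR adjusted p = 0.997 for each). The labels give no time of day for any library, and the part of these genes in the F3 and Plau values was not tested.

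Thbd, a gene known to be induced by the flow-responsive factors KLF2 and KLF4, was lowest where those genes were lowest or nearly so. In control 4 and in replicate 4 of the EC-TRAIL KO-labelled libraries, Thbd was at 1769 and 1818 CPM, Klf2 at 359 and 411 CPM and Klf4 at 1050.0 and 1143 CPM. In control 3, which had the highest Thbd, Klf2 and Klf4 were also highest, at 940.0 and 1749 CPM. Control 5 and replicate 5 of the other group had Thbd almost as high (2831 and 2838 CPM) with Klf2 at 592 and 614 CPM. Over the 10 libraries r with Thbd was 0.677 for Klf2 and 0.776 for Klf4, beside 0.794 for Tsc22d3, as a description. Klf2 and Klf4 were chosen after their values were seen and did not pass the test between the groups (edgeR adjusted p = 0.997 for each). The part of Klf2 and Klf4 in the Thbd values was not tested.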
